A study of Mus musculus with 4 samples.

Results

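The DNA replication and S-phase genes described here are 49 genes of the 32285 in each matrix, listed by symbol. The rule uses no measured value, but the list was drawn up with earlier results of these data known. All 49 were found in the deposited gene lists, and each had at least 1 unique molecular identifier (UMI, a tag that counts a transcript once) in all 4 libraries. The libraries were single-cell RNA-seq of bone marrow and spleen from C57BL/6J mice of 6 to 8 weeks into which MA9 cells had been transplanted, leukaemia cells that carry MLL-AF9, a fusion found in acute myeloid leukaemia. In these cells doxycycline switches on a hairpin, either one that targets Prmt9 (shPrmt9) or a control one (Ctrl), and every mouse, controls too, drank doxycycline for 7 days. Bone marrow (BM) and spleen gave 1 library each with Ctrl and with shPrmt9, so every difference is between single libraries and has no replicate check or test. Members were summed within cell classes gated by marker genes, scaled to 1000000 UMIs of the class (CPM), and intervals in parentheses are exact 95% intervals of counting error only.

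A cell copies its genome once per division, in S phase. Origins are first licensed by the origin recognition complex, Cdc6, Cdt1 and the Mcm2-7 helicase, then fired when Cdc45 and the GINS complex join, and copied by polymerases held on DNA by the Pcna clamp, while nucleotide enzymes and chromatin factors keep pace. Many of these genes are switched on together at the G1/S boundary by E2F transcription factors, which bind short motifs near start sites, and they fall silent when blood cells mature and leave the cycle.

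RefSeq promoter sequence (build GRCm38.p6) was at hand for 40 of the 49 genes, which lie on 16 chromosomes. The 250 bases before each start site were searched on both strands for 4 E2F-type motifs, TTTCCCGC, TTTGGCGC, TTTCGCGC and TTTGCCGC, which can overlap each other when read on opposite strands. At least 1 was found in 11 of the 40 genes (27.5%), namely Cdc6, Dnmt1, Gins3, Hells, Mcm5, Mcm6, Mcm7, Orc1, Pola1, Rfc3 and Uhrf1, and in 583 of 27025 genes of all (2.16%). The CCAAT box was found in 23 of the 40 genes (57.5%) and in 37.5% of all genes. A match is a description of letters, not a site of binding. The 3 stretches of 160 bases that lie wholly upstream of the annotated gene are printed here to show how the motif sits before genes of the helicase and of the primase complex, with the matches in capitals. Mcm5 (chr8:75109349-75109508, plus strand) and Mcm6 (chr1:128359706-128359865, minus strand) encode helicase subunits, and Pola1 (chrX:93632156-93632315, minus strand) encodes the catalytic subunit of the polymerase that starts each new strand.
Mcm5: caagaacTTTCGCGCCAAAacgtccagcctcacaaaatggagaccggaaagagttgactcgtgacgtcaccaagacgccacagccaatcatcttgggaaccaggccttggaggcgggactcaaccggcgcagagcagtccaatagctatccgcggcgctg
Mcm6: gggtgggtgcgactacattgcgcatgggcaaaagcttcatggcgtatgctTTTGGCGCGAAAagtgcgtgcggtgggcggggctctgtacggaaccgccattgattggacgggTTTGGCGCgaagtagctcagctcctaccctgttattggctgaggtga
Pola1: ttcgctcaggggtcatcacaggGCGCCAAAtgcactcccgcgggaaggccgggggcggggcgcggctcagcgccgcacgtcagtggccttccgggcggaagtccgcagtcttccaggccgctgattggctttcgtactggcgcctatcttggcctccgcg
Mcm5 has 2 matches that overlap, Mcm6 has 3, of which 2 overlap, and Pola1 has 1.

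The 4 libraries held 8648 to 11315 cell barcodes with 84009744 to 188030429 UMIs, and 7545 to 10175 cells were used, with medians of 6668 to 10548 UMIs per cell before doublets were left out. Pairs of libraries shared 15 to 35 barcodes. Prmt9, the targeted gene, stood at 10.5 and 6.91 CPM over all marrow cells with Ctrl and shPrmt9 and at 13.02 and 7.09 CPM over all spleen cells, ratios of 0.657 (0.609–0.708) in marrow and 0.544 (0.493–0.601) in spleen. The hairpin was carried by the transplanted cells, so these sums also count host cells without it. In cells outside the Hoxa gate, 4 Y-linked genes had 0 and 1 UMIs in the marrow libraries and 15472 and 14426 UMIs in the spleen libraries, so marrow and spleen did not come from the same mouse. The class meant to hold MA9 cells was gated by Hoxa9, Hoxa10 and other MLL-AF9 target genes, but its 10 leading genes held 3 markers of neutrophil progenitors (Elane, Ctsg and Prtn3) and 2 of its own, and it is therefore called Hoxa-gated. Its summed granule-forming markers were 1267, 5743, 8424 and 34510 CPM in the 4 libraries (marrow Ctrl and shPrmt9, then spleen Ctrl and shPrmt9), against 578, 801, 595 and 661 CPM for its own markers. Cells of the other classes are named T-like, B-like and so on from their markers. In Hoxa-gated cells Prmt9 went from 11.1 to 6.20 CPM in marrow, a ratio of 0.558 (0.504–0.617). In spleen it went from 18.9 to 6.06 CPM there, a ratio of 0.320 (0.182–0.560) from only 29 and 27 UMIs. All spleen cells held 962 and 688 Prmt9 UMIs, so the spleen ratio over all cells rests mostly on cells outside the gate. In T-like cells of spleen Prmt9 went from 15.2 to 9.13 CPM, a ratio of 0.602 (0.504–0.719). In NK-like cells of spleen it went from 10.2 to 13.7 CPM, a ratio of 1.34 (0.618–3.03). What lies behind the lower level in T-like cells was not tested.

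The first question was which cells carry the replication genes. Among classes with 40 or more cells in a library, their summed level ran from 101 CPM (96.4–106) in erythroid-like cells of Spleen-shPrmt9 to 3232 CPM (3057–3415) in B precursor-like cells of BM-shPrmt9. High levels were also found in Hoxa-gated cells, at 1641 CPM (1633–1649) in marrow Ctrl and 2829 CPM (2818–2839) in marrow shPrmt9, and 2516 CPM (2437–2597) and 1309 CPM (1275–1343) in spleen. Basophil/mast-like cells of marrow stood at 1894 CPM (1796–1996) and 2453 CPM (2361–2548), above Hoxa-gated cells in BM-Ctrl and below them in BM-shPrmt9. Of these classes, B precursor-like and Hoxa-gated cells are of kinds known to divide. Lymphocytes lay in the middle, with 846 to 1063 CPM in T-like and 1042 to 1458 CPM in mature B-like cells across the 4 libraries. Mature granulocyte-like cells, which no longer divide, had 206 CPM (198–215), 238 CPM (231–245), 230 CPM (173–300) and 233 CPM (200.5–270.01) in the 4 libraries, and these intervals overlap but for the marrow pair. Within marrow controls the order from high to low was B precursor-like, basophil/mast-like, Hoxa-gated, neutrophil progenitor-like, HSPC-like, monocyte/macrophage-like, mature B-like, T-like, DC-like, erythroid-like, granule-forming granulocyte-like and mature granulocyte-like cells. In that order, neighbours whose counting intervals overlap were monocyte/macrophage-like and mature B-like cells, and T-like and DC-like cells, while the others did not. The order holds for sums only. In B precursor-like cells of BM-Ctrl the 5% of cells with the most member UMIs held 47.9% of them. With every cell weighted the same, that class had 1393 CPM. Basophil/mast-like cells then had 1594 CPM, neutrophil progenitor-like cells 1519 CPM and Hoxa-gated cells 1514 CPM. Erythroid-like cells hold much globin mRNA, so their low place depends on the scaling. As CPM of non-globin UMIs they stood at 2123 and 2230 CPM in marrow with Ctrl and shPrmt9, and at 632 and 735 CPM in spleen. In these sums fewer cells in S phase and less RNA per cell cannot be told apart.

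**Figure D1:**
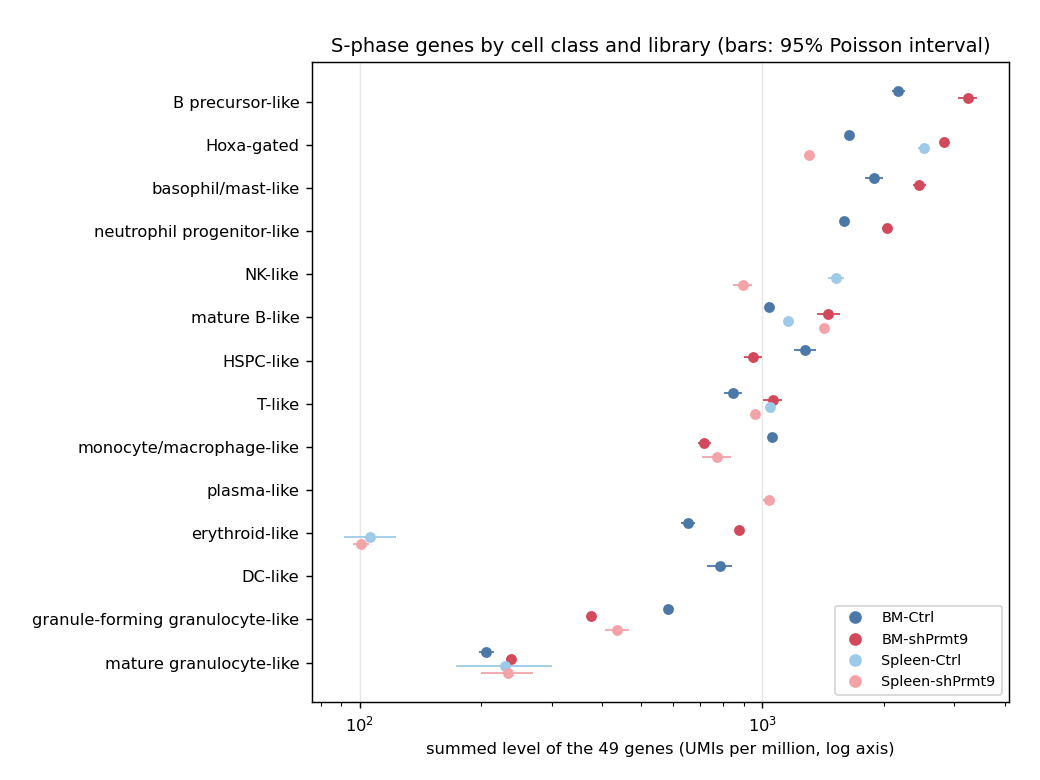
Summed level of the 49 genes (x axis, CPM, log scale) in each cell class (y axis) with 40 or more cells in a library, with points coloured by library and bars for exact 95% Poisson intervals. Mature granulocyte-like cells sit between 206 and 238 CPM, and Hoxa-gated cells between 1309 and 2829 CPM.

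Hoxa-gated cells of BM-Ctrl held 79.2% of the library's gated member UMIs in 18.6% of its gated cells, and those of BM-shPrmt9 87.7% in 19.7% of cells. These cells are deep, and they also held 66.2% and 60.6% of all gated UMIs. In the spleen libraries, mature B-like and T-like cells held most of them. Mature B-like cells had 69.6% in Spleen-Ctrl and 46.7% in Spleen-shPrmt9, and T-like cells 22.3% and 33.4%.

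Mature granulocyte-like, T-like and mature B-like cells differed from Hoxa-gated cells gene by gene, not by 1 factor. In mature granulocyte-like cells of BM-Ctrl, 39 of the 49 genes stood at under 0.1 of their level in Hoxa-gated cells of the same library, and only Rfc2, a clamp loader subunit, stood above it (1.17 times). Rfc2 made up 33.2% and Slbp, which binds histone mRNA, 22.1% of the member UMIs of that class. In T-like cells of Spleen-Ctrl 10 genes stood above the Hoxa-gated level of BM-Ctrl, with Pole2 (3.40 times), Pola2 (2.20) and Mcm4 (1.75) the highest, and 4 stood at under 0.1 of it. Those 4 were Rrm2 (0.0557 times), Cdc6 (0.0684), Tk1 (0.0720) and Cdc45 (0.0756). Rrm2 and Tk1 supply nucleotides, Cdc6 loads the helicase and Cdc45 joins it at firing. In mature B-like cells of Spleen-Ctrl 13 genes stood above that level, led by Pold1 (3.51 times) and Pola2 (2.22), and Rrm2 stood at 0.0399 of it. Of the 8 polymerase and primase genes, 3 stood above that level in T-like cells (Pola2, Pold1 and Pole2) and 3 in mature B-like cells (Pola2, Pold1 and Pold3). These lymphocytes and the Hoxa-gated cells of BM-Ctrl come from different libraries and mice. The lymphocyte sums also mix unlike cells. In Spleen-Ctrl the 5% of cells with the most member UMIs held 39.5% of them in T-like and 36.8% in mature B-like cells.

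In Hoxa-gated cells of marrow, replication genes stood higher in shPrmt9. The summed level was 1641 CPM in 1575 cells of BM-Ctrl and 2829 CPM in 1893 cells of BM-shPrmt9, a ratio of 1.72 (1.71–1.73). Of the 49 genes, each of which had at least 20 UMIs, 30 were higher by 1.5-fold or more, as were 21.6% of all 14119 genes tested, and 0 were lower by that fold, as were 16.7% of all genes. The ratio was above 1 for 48 genes, and their median log2 ratio was 0.78 against 0.01 over all genes. Rpa3, the smallest subunit of the single-strand binding protein RPA, was the one gene below 1.

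In Hoxa-gated cells of spleen the same genes stood lower in shPrmt9. The gate held 177 cells of Spleen-shPrmt9 but only 42 of Spleen-Ctrl, fewer than the 50 asked for elsewhere, so this comparison was added after the cell counts were seen. The summed level went from 2516 to 1309 CPM, a ratio of 0.520 (0.499–0.542). Of 48 genes with 20 or more UMIs, 38 were lower by 1.5-fold or more, against 28.9% of all genes tested, and 0 were higher, against 21.9%. The difference between marrow and spleen was not tested. Single genes had 264 to 19947 UMIs in each marrow library and 4 to 554 UMIs in each spleen library, so the spleen values are the less precise. In the following paragraphs levels are given in the order marrow Ctrl, marrow shPrmt9, spleen Ctrl, spleen shPrmt9, and ratios are those of shPrmt9 over Ctrl.

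Licensing genes, which load the helicase, stood higher in marrow and lower in spleen. The 11 genes summed to a ratio of 2.02 (1.99–2.04) in marrow, with 9 higher by 1.5-fold or more, and 0.494 (0.458–0.533) in spleen, with all 10 genes tested lower. Mcm6, a helicase subunit, was counted at 89.6, 172, 133 and 77.7 CPM, with ratios of 1.92 (1.87–1.97) in marrow and 0.586 (0.491–0.700) in spleen. Mcm3, another subunit of the ring, stood at 64.8, 158, 158 and 72.7 CPM, ratios of 2.44 (2.37–2.51) and 0.460 (0.388–0.546). Both were thus highest in BM-shPrmt9 or Spleen-Ctrl and lower in the remaining libraries. Mcm4, which forms the catalytic core with its partners, stood at 26.9, 66.9, 51.6 and 30.1 CPM, ratios of 2.48 (2.37–2.60) and 0.583 (0.438–0.780). Mcm7 stood at 50.7, 117, 97.9 and 40.6 CPM, ratios of 2.31 (2.23–2.39) and 0.415 (0.332–0.519). Mcm2, which also carries histones, stood at 28.7, 57.6, 63.3 and 22.4 CPM, ratios of 2.004 (1.91–2.10) and 0.354 (0.265–0.474). In marrow the factors that bring the ring to origins had ratios of 1.38 to 1.89, against 1.82 to 2.48 for ring subunits. Cdc6, the loading ATPase, stood at 16.1, 27.4, 30.03 and 6.73 CPM, ratios of 1.70 (1.596–1.81) and 0.224 (0.137–0.363). Mcm10, which acts when the helicase fires, stood at 11.4, 16.2, 16.98 and 5.16 CPM, ratios of 1.42 (1.31–1.54) and 0.304 (0.166–0.554). Orc1, the largest subunit of the origin recognition complex, had 264 and 503 UMIs in marrow, a ratio of 1.81 (1.56–2.11), and in spleen 10 and 6 UMIs, below the minimum of 20. The remaining Cdt1, Orc6 and Mcm5 had marrow ratios of 1.38 to 1.89 and spleen ratios of 0.563 to 0.634.

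Genes that activate the helicase had a smaller difference in marrow, with a summed ratio of 1.37 (1.33–1.41), and stood at 0.436 (0.362–0.526) in spleen. Of the 5 genes 2 passed 1.5-fold in marrow, where all 5 lay above 1. Cdc45, which joins the Mcm ring at firing, stood at 39.9, 49.8, 45.05 and 19.5 CPM, ratios of 1.25 (1.20–1.30) and 0.433 (0.312–0.603). Gins4, of the GINS complex, stood at 29.4, 35.9, 39.8 and 17.7 CPM, ratios of 1.22 (1.16–1.28) and 0.445 (0.315–0.632). Values of the other GINS subunits follow. Gins2 stood at 16.4, 31.99, 28.1 and 12.6 CPM, ratios of 1.95 (1.84–2.08) and 0.448 (0.296–0.682). Gins1 stood at 11.5, 13.97, 16.3 and 3.82 CPM, ratios of 1.22 (1.12–1.32) and 0.234 (0.118–0.450). Gins3 had the spleen ratio nearest to 1 of this group, 1.03 (0.422–2.87), from 7 and 21 UMIs, and 1.72 (1.52–1.95) in marrow.

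The 8 polymerase and primase genes had a summed ratio of 1.37 (1.34–1.41) in marrow, where 3 passed 1.5-fold, and 0.552 (0.474–0.644) in spleen, where 6 were lower by that fold. Pole2, the second subunit of the leading-strand polymerase epsilon, had the largest ratio of them in marrow and stood at 9.06, 21.3, 25.5 and 8.53 CPM, ratios of 2.36 (2.17–2.55) and 0.335 (0.209–0.538). Its catalytic partner Pole stood at 6.22, 8.45, 7.83 and 2.24 CPM, ratios of 1.36 (1.22–1.51) and 0.286 (0.111–0.724). The partners of 1 enzyme therefore had unlike marrow ratios. Pold3, an accessory subunit of polymerase delta, stood at 33.999, 42.2, 34.6 and 27.2 CPM, ratios of 1.24 (1.18–1.30) and 0.785 (0.564–1.11). Prim1, the primase that lays down the RNA primer, stood at 32.997, 45.8, 35.3 and 18.2 CPM, ratios of 1.39 (1.33–1.45) and 0.516 (0.361–0.742). Pold1, the catalytic subunit of polymerase delta, stood at 10.7, 16.8, 17.6 and 6.51 CPM, ratios of 1.57 (1.45–1.70) and 0.369 (0.211–0.648). Prim2, the large primase subunit, was almost level in marrow. It stood at 19.3, 20.8, 14.4 and 6.96 CPM, ratios of 1.08 (1.01–1.15) and 0.484 (0.272–0.878). Pola1 and Pola2 had marrow ratios of 1.22 and 1.55 and spleen ratios of 0.638 and 0.688, and both spleen intervals include 1.

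The clamp Pcna and the genes that load it had a summed ratio of 1.43 (1.41–1.45) in marrow and 0.571 (0.516–0.633) in spleen. Pcna, the sliding clamp that also serves repair, stood at 118, 169, 166 and 124 CPM, ratios of 1.43 (1.40–1.47) and 0.747 (0.643–0.870). Rfc2, a clamp loader subunit, stood at 58.5, 86.2, 75.7 and 28.95 CPM, ratios of 1.47 (1.43–1.53) and 0.382 (0.295–0.496). Neither passed 1.5-fold in marrow. Dscc1, of a loader tied to sister chromatid cohesion, had the largest marrow ratio of the 49 genes, 3.25 (2.84–3.72), at 3.06, 9.93, 8.49 and 3.14 CPM, with 0.370 (0.161–0.855) in spleen from 13 and 14 UMIs. Rfc4 stood at 55.2, 60.8, 69.9 and 26.7 CPM, ratios of 1.10 (1.06–1.14) and 0.382 (0.292–0.501). Rfc5 stood at 27.8, 37.3, 28.7 and 12.1 CPM, ratios of 1.34 (1.28–1.41) and 0.422 (0.278–0.643). Among loader subunits, the marrow ratio was highest for Rfc3 after Dscc1, at 1.86 (1.78–1.95), and its spleen ratio was 0.663 (0.493–0.898).

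The 3 subunits of RPA, which coats single-stranded DNA, had unlike ratios in marrow. Rpa2 stood at 31.1, 49.1, 60.7 and 24.5 CPM, ratios of 1.58 (1.51–1.65) and 0.403 (0.303–0.537). Rpa3 was lower in shPrmt9 in both tissues, at 52.8, 39.1, 51.6 and 14.6 CPM, ratios of 0.741 (0.710–0.773) and 0.283 (0.201–0.398). Rpa1 had ratios of 1.73 (1.64–1.83) in marrow and 0.695 (0.487–1.003) in spleen, the latter with an interval that reaches 1. Both genes that finish the lagging strand passed 1.5-fold in each tissue, in opposite directions. Fen1, the nuclease that trims flaps, stood at 26.8, 68.6, 47.01 and 20.6 CPM, ratios of 2.56 (2.45–2.68) and 0.439 (0.319–0.607). Lig1, the ligase that seals the joined fragments, stood at 51.4, 90.9, 76.4 and 45.1 CPM, ratios of 1.77 (1.71–1.83) and 0.591 (0.468–0.748).

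Nucleotide enzymes and the uracil glycosylase Ung had a summed ratio of 1.87 (1.84–1.90) in marrow and 0.433 (0.381–0.492) in spleen, where all 5 were lower by 1.5-fold or more. Rrm2, the subunit of ribonucleotide reductase made only in cycling cells, stood at 100.1, 202, 94.02 and 46.7 CPM, ratios of 2.02 (1.97–2.07) and 0.497 (0.400–0.618). Rrm1, its partner, stood at 62.9, 90.8, 63.3 and 28.3 CPM, ratios of 1.45 (1.40–1.49) and 0.447 (0.340–0.588). The cycling subunit thus had the larger marrow ratio of the pair. Tyms, which makes thymidylate, stood at 42.7, 94.7, 75.7 and 35.7 CPM, ratios of 2.22 (2.14–2.30) and 0.471 (0.369–0.604). Tk1, the salvage kinase for thymidine, stood at 29.9, 59.8, 31.3 and 9.65 CPM, ratios of 2.002 (1.91–2.10) and 0.308 (0.199–0.475). Ung, which removes uracil from DNA, was the lowest of all in spleen. It stood at 10.5, 11.5, 15.7 and 0.898 CPM, ratios of 1.10 (1.01–1.20) and 0.0573 (0.0144–0.167), the latter from 24 and 4 UMIs.

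Chromatin genes that follow the fork had a summed ratio of 1.74 (1.71–1.78) in marrow and 0.431 (0.383–0.486) in spleen. Dnmt1, the maintenance DNA methyltransferase, stood at 52.1, 105, 73.1 and 68.01 CPM, ratios of 2.01 (1.94–2.08) and 0.9301 (0.746–1.17), so its spleen interval includes 1. Hells, a remodelling helicase needed for methylation, stood at 39.9, 67.5, 122 and 31.4 CPM, ratios of 1.69 (1.62–1.76) and 0.257 (0.205–0.322). Uhrf1, which guides Dnmt1 to new strands, stood at 28.3, 39.4, 54.2 and 12.8 CPM, ratios of 1.39 (1.33–1.46) and 0.236 (0.165–0.335). Dnmt1 and its guide therefore had unlike spleen ratios, with intervals that do not overlap. Chaf1a, the large subunit of chromatin assembly factor CAF-1, stood at 19.8, 41.3, 39.2 and 17.3 CPM, ratios of 2.08 (1.97–2.20) and 0.441 (0.311–0.629). Chaf1b, its partner, stood at 23.5, 32.5, 39.8 and 12.1 CPM, ratios of 1.38 (1.31–1.46) and 0.304 (0.207–0.446).

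Regulators of the G1/S step and Slbp had the largest summed ratio of the 9 roles in marrow, 2.17 (2.12–2.22), and the one nearest to 1 in spleen, 0.905 (0.788–1.04). All 4 passed 1.5-fold in marrow and none did in spleen. Slbp, which protects and processes histone mRNA, stood at 58.8, 136, 103 and 104 CPM, ratios of 2.32 (2.24–2.39) and 1.02 (0.848–1.23). E2f1, an activating E2F factor, stood at 17.4, 31.8, 37.2 and 26.04 CPM, ratios of 1.82 (1.71–1.93) and 0.700 (0.505–0.978). Ccne2, a cyclin that drives entry into S phase, stood at 10.7, 25.2, 16.3 and 14.1 CPM, ratios of 2.37 (2.20–2.55) and 0.866 (0.537–1.44). Its relative Ccne1 stood at 14.1, 26.3, 28.7 and 22.7 CPM, ratios of 1.86 (1.74–1.98) and 0.789 (0.549–1.15). In spleen the other 8 roles lay between 0.423 and 0.571.

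**Figure D2:**
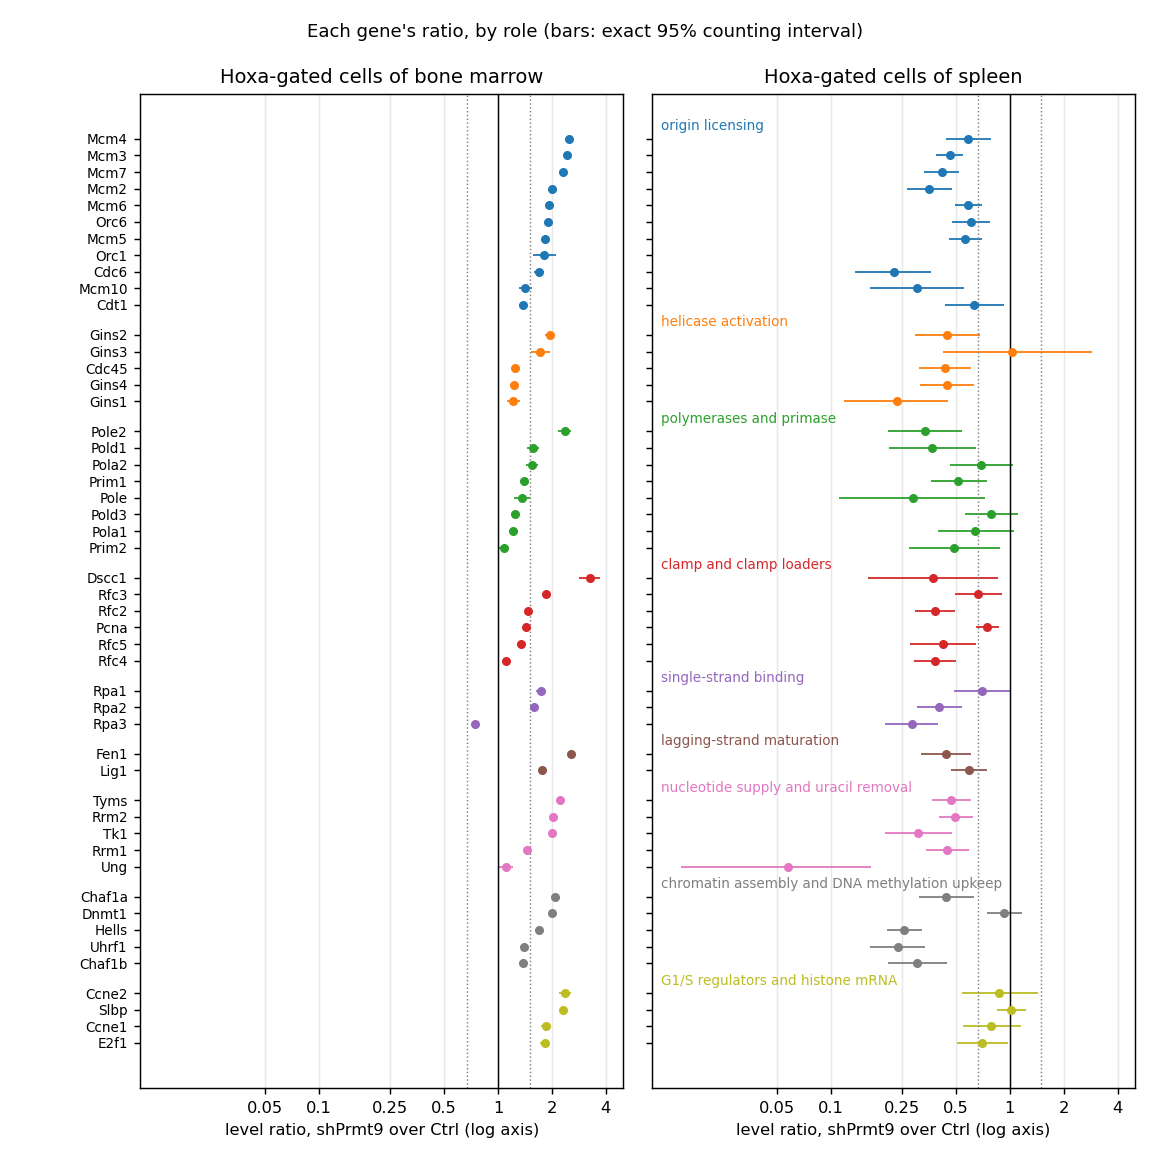
Ratio of each gene's level, shPrmt9 over Ctrl (x axis, log scale), in Hoxa-gated cells of bone marrow (left) and spleen (right), with genes on the y axis grouped by role and bars for exact 95% counting intervals. Dotted lines mark 1.5-fold, and Orc1 has no spleen point. In marrow 48 of 49 genes lie right of 1, and in spleen 46 of 48 lie left of it.

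A sum does not separate the number of cells that hold these transcripts from the amount in each, so single cells were compared at 1 depth. Each Hoxa-gated cell was thinned at random to 10000 UMIs, which kept 1559, 1834, 38 and 173 cells of the 4 libraries. The median cell then had 8 member UMIs with Ctrl and 23 with shPrmt9 in marrow, and 12.5 and 5 in spleen. Cells with 20 or more member UMIs, a threshold set after the values were seen, made up 27.6% (25.4–29.9), 56.4% (54.1–58.7), 44.7% (28.6–61.7) and 17.3% (12.02–23.8) of them. Within such cells the mean was 37.4, 39.0, 39.9 and 41.1 member UMIs, and in the other cells 6.91, 8.32, 6.52 and 5.12. The threshold splits cells by these same UMIs and so bounds both means, which are a description. Between 18 and 22 member UMIs, near the threshold, lay 84, 147, 0 and 10 cells.

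**Figure D3:**
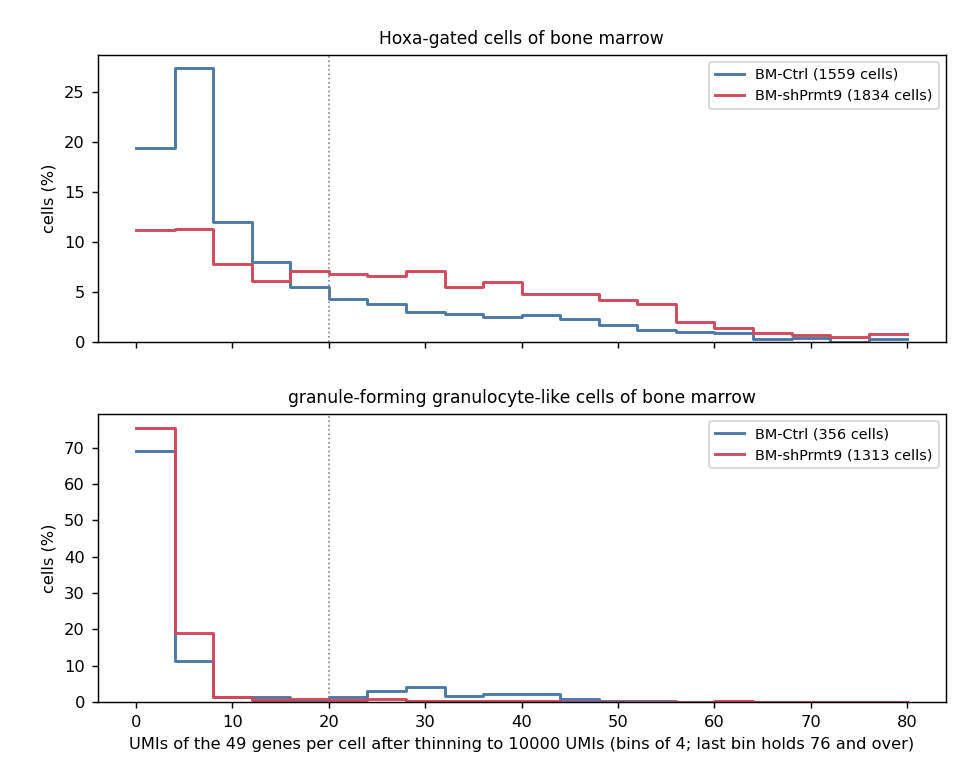
Distribution over single cells of the UMIs of the 49 genes after thinning to 10000 UMIs (x axis) as a percent of cells (y axis), in Hoxa-gated (top) and granule-forming granulocyte-like cells (bottom) of bone marrow. The dotted line marks 20 UMIs, above which lie 27.6% and 56.4% of Hoxa-gated cells of BM-Ctrl and BM-shPrmt9, and 16.3% and 2.51% of granule-forming granulocyte-like cells.

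A like picture came from unthinned Hoxa-gated cells with at least 2000 CPM of the 49 genes, taken as high cells. They made up 26.4% (24.2–28.7) of Ctrl and 56.0% (53.7–58.2) of shPrmt9 cells, with summed levels of 3705 and 3833 CPM. Within high cells the median ratio of the 49 genes was 0.996, with 3 genes higher by 1.5-fold and 1 lower. The 3 were Dscc1 (1.68), Fen1 (1.58) and Pole2 (1.54), and the lower one was Rpa3 (0.621). By role, high cells of BM-shPrmt9 had 1.32 times the G1/S regulators and Slbp of those of BM-Ctrl, 1.19 times the licensing genes, and 0.861 and 0.850 times the polymerases and the helicase activators. In the other cells the median ratio was 1.17, with 15 genes higher by 1.5-fold, led by Tk1 (2.64), Mcm4 (2.11) and Rrm2 (2.10), and 4 lower. High cells were chosen by the same counts, so their levels are a description.

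The genes varied together from cell to cell in both marrow libraries. At 10000 UMIs the Spearman correlation of each gene with the sum of the other members was highest for Rrm2 (0.660 over 1559 cells of BM-Ctrl and 0.658 over 1834 of BM-shPrmt9) and Mcm3 (0.606 and 0.662). It was low for Orc1 (0.099 and 0.118) and Prim2 (0.099 and 0.207), which had a UMI in 2.44% and 15.3% of cells of BM-Ctrl. All these cells share a library and a depth. The members' sum and that of 20 genes of G2 and M phase had a correlation of 0.599 in BM-Ctrl and 0.439 in BM-shPrmt9. Among cells with 20 or more member UMIs, the G2 and M phase genes had means of 19.2 UMIs with Ctrl and 15.8 with shPrmt9, and among the other cells 8.63 and 10.4.

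Hoxa-gated cells of the libraries also differed in granule genes, which are switched on as progenitors mature. Cells with a granule-forming marker score of 0.1 or more made up 13.2%, 37.1%, 31.0% and 85.3% of Hoxa-gated cells in the 4 libraries. In marrow cells below that score the summed level went from 1699 to 3109 CPM, a ratio of 1.83 (1.82–1.84), with 34 of 49 genes higher by 1.5-fold. In those at or above it the level went from 920.2 to 1942 CPM, a ratio of 2.11 (2.06–2.17), with 39 genes higher. The marrow ratio was thus above 1 on both sides of the split and larger at or above the score. In spleen the ratio was 0.394 (0.362–0.428) below the score, in 29 and 26 cells, and 0.556 (0.521–0.595) at or above it, in 13 and 151 cells.

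Of 5 other cell-cycle lists in Hoxa-gated cells of marrow, none had a median ratio as high as that of the members. The shares over all genes in this class were 21.6% higher and 16.7% lower by 1.5-fold. Of 36 other replication genes, 10 were higher and 3 lower, with a median log2 ratio of 0.22. Cdc7, the kinase that fires origins, went from 4.84 to 10.1 CPM (2.09, 1.87–2.34), and Atad5, which unloads Pcna, from 14.01 to 28.3 CPM (2.02, 1.89–2.16). On the low side Rrm2b, the p53-regulated reductase subunit, went from 27.1 to 13.1 CPM (0.484, 0.452–0.517), and Recql4, a helicase of replication start, from 7.67 to 3.995 CPM (0.521, 0.459–0.590). Among 19 genes of the E2F and retinoblastoma family 5 were higher and 7 lower, with a median of 0.06. The repressor E2f8 went from 16.1 to 38.7 CPM (2.41, 2.27–2.56) and E2f7 from 3.52 to 7.43 CPM (2.11, 1.85–2.41). The D-type cyclins, which start the path to S phase, did not move one way. Ccnd1 went from 14.5 to 1.58 CPM (0.109, 0.0921–0.129), Ccnd2 from 311 to 80.5 CPM (0.259, 0.253–0.266), and Ccnd3 from 208 to 351 CPM (1.68, 1.65–1.71).

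Of 15 repair genes linked to replication 6 were higher and 0 lower, with a median log2 ratio of 0.27. Msh6, of mismatch repair, went from 12.1 to 27.3 CPM (2.27, 2.11–2.43), and Atad2, a chromatin factor of S phase, from 65.4 to 148 CPM (2.26, 2.20–2.33). Lowest were Brca2, of recombination, from 16.5 to 15.4 CPM (0.934, 0.869–1.003), and Blm, a helicase, from 25.1 to 26.2 CPM (1.04, 0.986–1.10). Of 11 cell-cycle inhibitors 1 was higher and 3 lower. The higher one was Cdkn1c, which holds blood stem cells at rest, from 10.2 to 43.99 CPM (4.30, 4.01–4.61), and the next, Cdkn2c, went from 1.20 to 1.62 CPM (1.35, 1.05–1.73). The lowest were the neighbours Cdkn2a, from 35.0001 to 10.6 CPM (0.302, 0.281–0.323), and Cdkn2b, from 4.16 to 1.85 CPM (0.444, 0.370–0.531). Of the 20 G2 and M phase genes 7 were higher and 0 lower, with a median of 0.38. Cenpf, of the kinetochore, went from 49.1 to 94.1 CPM (1.92, 1.85–1.98) and Birc5, of the chromosomal passenger complex, from 72.7 to 135 CPM (1.85, 1.80–1.91), while Ube2c, which helps to end mitosis, went from 201 to 173 CPM (0.862, 0.844–0.880) and Top2a, which untangles chromosomes, from 219.5 to 215 CPM (0.979, 0.960–0.998). In Hoxa-gated cells of spleen, where 28.9% of all genes were lower by 1.5-fold and 21.9% higher, 20 of 33 other replication genes were lower and 1 higher. Of 18 E2F family genes 11 were lower and 3 higher, and of 12 repair genes 11 were lower and 0 higher. Of 20 G2 and M phase genes 8 were lower and 5 higher, and of 9 inhibitors 1 was lower and 8 were higher.

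Shares of cells that carried UMIs of at least 3 of the 49 genes after thinning to 2000 UMIs gave the same order in Hoxa-gated cells. In marrow they were 39.4% (37.01–41.9) with Ctrl and 63.4% (61.2–65.6) with shPrmt9, and in spleen 52.4% (36.4–67.996) and 23.9% (17.8–30.9), with 3, 10, 0 and 1 shallower cells left out. Unthinned, at median depths of 58647, 48719, 34608.5 and 23822 UMIs, nearly all cells passed, at 98.7%, 98.5%, 88.1% and 92.1%, so the unthinned share did not separate the libraries. In mature granulocyte-like cells the thinned share in marrow was 0.497% with Ctrl and 0.595% with shPrmt9 (medians of 3376 and 5420 UMIs per cell), and 0 of 60 and 0 of 91 cells in the spleen libraries. A count of 0 allows shares of up to 5.96% and 3.97% there. These shares serve as the background of this count.

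In T-like cells the summed level was higher with shPrmt9 in marrow and slightly lower in spleen, where Ccne1 stood apart. Here and in the classes that follow, the highest and lowest ratios named are those among genes with 50 or more UMIs. In marrow it went from 846 CPM (268 cells) to 1063 CPM (161 cells), a ratio of 1.26 (1.17–1.35), with 10 of 34 genes higher by 1.5-fold against 12.9% of all genes, and 4 lower against 11%. The share of cells with 3 or more of the genes was 23.8% (18.8–29.5) and 22.8% (16.5–30.1), intervals that overlap. The top 5% of cells held 21.2% and 29.5% of the member UMIs, and the top cell of BM-shPrmt9 held 12.7%. With each cell weighted the same the levels were 845 and 972 CPM. Rpa3 went from 17.3 to 32.5 CPM, a ratio of 1.88 (1.15–3.07), Orc6, of the origin complex, from 13.1 to 22.8 CPM, a ratio of 1.73 (0.975–3.10), and Rfc3 from 15.7 to 26.005 CPM, a ratio of 1.65 (0.972–2.81). The smallest ratios were 0.666 (0.448–0.975) for Dnmt1, 0.793 (0.445–1.37) for Pola2 and 0.798 (0.511–1.22) for Mcm4.

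In T-like cells of spleen the sum went from 1045 CPM (1969 cells) to 957 CPM (2923 cells), a ratio of 0.916 (0.899–0.934). Of 49 genes 21 were lower by 1.5-fold against 19% of all genes, and 1, Ccne1, was higher against 10.5%. The lowest ratios were those of Tyms, Pole2 and Rrm2. Tyms went from 10.6 to 3.17 CPM, a ratio of 0.299 (0.229–0.389), Pole2 from 30.8 to 10.3 CPM, a ratio of 0.336 (0.290–0.389), and Rrm2 from 5.58 to 2.10 CPM, a ratio of 0.376 (0.266–0.527). After Ccne1 the highest ratios were 1.32 (0.781–2.31) for Ccne2 and 1.22 (1.08–1.38) for Pold3. Without Ccne1 the summed ratio was 0.757 (0.742–0.772). With Ccne1 kept, weighting every cell the same gave 1.10, and leaving out the 5% of cells with the most member UMIs gave 1.11. Those top cells held 39.5% of the member UMIs in Spleen-Ctrl and 23.0% in Spleen-shPrmt9, and cells with 20 or more member UMIs at 10000 were 9.29% (38 of 409) and 3.42% (34 of 993). G2 and M phase genes in this class summed to 124 and 47.0 CPM, and 17 of 20 were lower by 1.5-fold.

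Ccne1 (chr7:38097984-38107534, minus strand, GRCm38) encodes cyclin E1, which activates Cdk2 for entry into S phase. In T-like cells of spleen it went from 193 UMIs (11.2 CPM) in Spleen-Ctrl to 4738 UMIs (174 CPM) in Spleen-shPrmt9, a ratio of 15.6 (13.5–18.1). It then made up 18.2% of the class's member UMIs. Cells with a Ccne1 UMI were 6.96% and 46.1%, and after thinning to 2000 UMIs 1.88% (1.33–2.59) and 23.6% (22.07–25.3). The UMIs were spread over 1347 cells with at most 35 in one, and 3 cells had 20 or more. In NK-like cells of the same library the thinned share was 0% (0 of 144 cells, interval up to 2.53%), and in mature B-like cells 1.85% (1.19–2.74), at median depths of 8494 and 15029.5 UMIs against 8512 in T-like cells. T-like cells of marrow had 13.1 CPM and 11.4 CPM, so the high level was seen in 1 of the 4 libraries.

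Cells with Ccne1 were not those rich in the other 48 genes in Spleen-shPrmt9. There the other members summed to 812 CPM in the 1347 T-like cells with a Ccne1 UMI and 753 CPM in the 1576 without. In Spleen-Ctrl they summed to 2215 CPM in 137 cells with and 854 CPM in 1832 without. Cd4 and Cd8a, which mark helper and cytotoxic T cells, stood at 53.4 and 115 CPM in cells with Ccne1 and 57.1 and 129 CPM in cells without in Spleen-shPrmt9, so both marks were counted in each set. Other T cell genes differed more between the sets. Foxp3, the factor of regulatory T cells, stood at 1.39 CPM in cells with Ccne1 and 5.02 CPM in cells without, and Cd44, an adhesion receptor raised on activated T cells, at 14.4 and 27.9 CPM. The adjacent genes did not follow to that size. Uri1 had a ratio of 0.952 (0.878–1.03), at 57.8 and 55.03 CPM, and 1600014C10Rik 1.63 (1.46–1.83), at 25.1 and 40.9 CPM. The share of T-like cells with 3 or more members was 19.1% (17.4–20.9) and 21.9% (20.3–23.5), and without Ccne1 18.6% (16.9–20.4) and 16.4% (15.003–17.8).

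**Figure D4:**
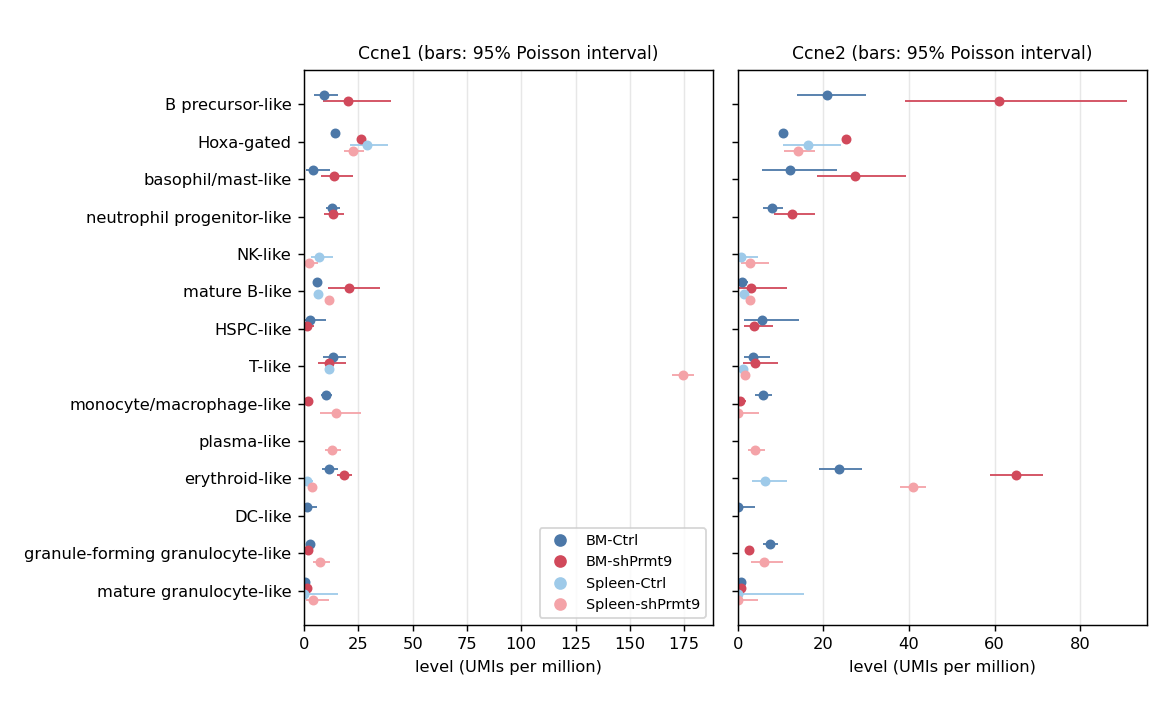
Level of Ccne1 (left) and Ccne2 (right) in CPM (x axis, linear) by cell class (y axis) and library (colour), with exact 95% Poisson intervals as bars. Ccne1 reaches 174 CPM in T-like cells of Spleen-shPrmt9, and Ccne2 reaches 40.9 and 64.9 CPM in erythroid-like cells of the shPrmt9 libraries. Ccne2 also stood at 61.1 CPM in B precursor-like cells of BM-shPrmt9.

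In mature B-like cells the summed level was higher with shPrmt9 in both tissues, in marrow to a large part in 1 cell. In spleen the sum went from 1161 CPM (5728 cells) to 1422 CPM (1346 cells), a ratio of 1.22 (1.21–1.24), with 12 of 49 genes higher by 1.5-fold against 10.3% of all genes and 1 lower against 25.3%. The nucleotide enzymes Tyms and Rrm2 led. Tyms went from 8.74 to 23.9 CPM, a ratio of 2.73 (2.41–3.10), Rrm2 from 3.997 to 9.21 CPM, a ratio of 2.30 (1.90–2.80), and Orc6 from 20.6 to 40.1 CPM, a ratio of 1.94 (1.78–2.12). The smallest ratios were 0.664 (0.519–0.842) for Gins3, 0.781 (0.665–0.916) for Prim2 and 0.784 (0.713–0.861) for Cdt1. The share of cells with 3 or more members was 27.2% (26.03–28.4) and 30.5% (28.03–33.1). Of the 20 G2 and M phase genes 14 were higher by 1.5-fold. In marrow the sum went from 1042 CPM (901 cells) to 1458 CPM (53 cells), a ratio of 1.40 (1.30–1.501), with 19 of 42 genes higher against 11.3% and 2 lower against 21.8%. A single cell of BM-shPrmt9 held 26.1% of that class's member UMIs, and without the top cell of each library the ratio was 1.13. The share of cells with 3 or more members was 28.1% (25.2–31.2) and 22.6% (12.3–36.2) in marrow, lower with shPrmt9 but with intervals that overlap. Mcm5 went from 16.4 to 37.9 CPM, a ratio of 2.31 (1.40–3.69), Mcm3 from 34.8 to 75.9 CPM, a ratio of 2.18 (1.55–3.02), and Ung from 13.97 to 30.04 CPM, a ratio of 2.15 (1.22–3.62), while Rrm2 had 0.530 (0.140–1.43), Prim2 0.698 (0.218–1.73) and Cdt1 0.837 (0.484–1.36).

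NK-like cells of spleen had fewer replication transcripts in shPrmt9. The sum went from 1527 CPM (80 cells) to 893 CPM (148 cells), a ratio of 0.585 (0.544–0.629). Of 33 genes tested 22 were lower by 1.5-fold against 13.2% of all genes, and 0 were higher against 26.2%. Hells went from 52.7 to 3.60 CPM, a ratio of 0.0683 (0.0214–0.168), Mcm2 from 49.3 to 10.1 CPM, a ratio of 0.204 (0.105–0.371), and Mcm3 from 75.7 to 15.8 CPM, a ratio of 0.209 (0.125–0.337). Slbp, Gins4 and Rpa2 had the highest ratios, 1.18 (0.924–1.51), 1.19 (0.776–1.83) and 1.48 (0.958–2.30). The share of cells with 3 or more members was 35.0% (24.7–46.5) and 25.7% (18.8–33.6), and these intervals overlap. The top 5% of cells held 30.6% of the member UMIs in Spleen-Ctrl and 12.3% in Spleen-shPrmt9. With each cell weighted the same the levels were 1228 and 910 CPM, which lie closer than the sums.

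Among maturing myeloid cells of marrow the sum was lower in shPrmt9. In granule-forming granulocyte-like cells it went from 583 CPM (1041 cells) to 375 CPM (2028 cells), a ratio of 0.643 (0.623–0.665), with 32 of 47 genes lower by 1.5-fold against 20% of all genes and 0 higher against 6.77%. Over all genes the median log2 ratio was -0.27, and over the members -0.87. Pola1 went from 5.26 to 0.979 CPM, a ratio of 0.186 (0.1099–0.307), Prim1 from 10.6 to 2.69 CPM, a ratio of 0.254 (0.184–0.348), and Rfc4 from 17.1 to 6.04 CPM, a ratio of 0.354 (0.282–0.443). The highest ratios were 1.29 (1.17–1.44) for Rfc2, 0.935 (0.761–1.15) for Pold3 and 0.925 (0.758–1.13) for Gins4. A few cells carried the sum, since the top 5% of cells held 61.4% of the member UMIs in BM-Ctrl and 46.8% in BM-shPrmt9. At 10000 UMIs, cells with 20 or more member UMIs were 16.3% (58 of 356 cells) and 2.51% (33 of 1313). The thinned share with 3 or more members was 6.41% (4.99–8.08) and 2.95% (2.24–3.79), but unthinned it was 24.98% and 37.5%, with medians of 8601 and 11217.5 UMIs.

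Monocyte/macrophage-like cells of marrow went from 1058 CPM (445 cells) to 718 CPM (242 cells), a ratio of 0.679 (0.648–0.711), with 25 of 46 genes lower by 1.5-fold against 16.1% of all genes and 0 higher against 15.3%. Rrm2 went from 48.3 to 8.11 CPM, a ratio of 0.168 (0.111–0.246), Ccne1 from 9.92 to 1.68 CPM, a ratio of 0.169 (0.0598–0.390), and Prim1 from 19.2 to 3.92 CPM, a ratio of 0.204 (0.108–0.356). Chaf1b, Pole2 and Rpa3 had 1.23 (0.798–1.88), 1.21 (0.740–1.964) and 1.18 (0.852–1.64). Here too the difference lay in few cells. At 10000 UMIs 37 of 274 cells (13.5%) and 1 of 142 (0.704%) had 20 or more member UMIs, while the share with 3 or more members at 2000 UMIs was 15.9% (12.6–19.7) and 20.3% (15.3–26.1). With each cell weighted the same the ratio was 1.03, and without the top 5% of cells 0.941. All 20 G2 and M phase genes were lower by 1.5-fold in this class.

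Mature granulocyte-like cells of marrow had a low sum in both libraries, with 206 CPM (2946 cells) and 238 CPM (3619 cells), a ratio of 1.15 (1.10–1.21). Of 42 genes 18 were higher by 1.5-fold against 7.67% of all genes and 5 lower against 20.9%, at a median log2 ratio of all genes of -0.28. Pola2 went from 1.01 to 2.84 CPM, a ratio of 2.81 (1.46–5.94), Mcm5 from 1.19 to 3.18 CPM, a ratio of 2.66 (1.45–5.26), and Rpa2 from 1.84 to 3.27 CPM, a ratio of 1.78 (1.07–3.10). Mcm10 went from 4.499 to 1.40 CPM, a ratio of 0.310 (0.189–0.501), with 0.617 (0.418–0.914) for Cdc45 and 0.625 (0.359–1.10) for Pold1. In spleen 62 and 95 such cells had 55 and 180 member UMIs, a ratio of 1.01 (0.746–1.40). Only 3 genes could be tested there, 1 higher against 12.9% of all genes and 0 lower against 32.9%, and Slbp, the only one with 50 UMIs, had 1.07 (0.568–2.17).

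Erythroid-like cells fill with globin mRNA as they mature. In marrow the sum went from 653 CPM (639 cells) to 875 CPM (1147 cells), a ratio of 1.34 (1.28–1.41), with 29 of 47 genes higher by 1.5-fold against 46.8% of all genes, and 0 lower against 3.72%. The median log2 ratio of all genes was 0.53 there, and of the members 0.74. Scaled by TMM factors the ratio was 0.951, so its direction rests on the scaling. As CPM of non-globin UMIs the ratio was 1.05 (1.002–1.10). Tyms went from 4.61 to 14.6 CPM, a ratio of 3.18 (1.88–5.67), Gins4 from 2.71 to 8.15 CPM, a ratio of 3.01 (1.52–6.62), and Mcm6 from 8.95 to 25.8 CPM, a ratio of 2.88 (1.98–4.32). The smallest were 0.846 (0.588–1.22) for Uhrf1, 0.869 (0.704–1.08) for Tk1 and 0.929 (0.731–1.19) for Orc6. In spleen the sum was 106 CPM (153 cells) and 101 CPM (1566 cells), a ratio of 0.950 (0.815–1.11) that was 1.40 with TMM factors, with 3 of 21 genes higher against 14.7% of all genes and 11 lower against 47.2%.

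Cells were then split by the share of globin in their UMIs, with limits set after the values were seen. As CPM of non-globin UMIs, the 49 genes in BM-Ctrl stood at 5568, 4070, 1524, 390 and 297 CPM in cells with under 25%, 25 to 50%, 50 to 75%, 75 to 90% and at least 90% globin. In BM-shPrmt9 they stood at 4021, 3373, 834, 747 and 541 CPM. In both libraries the level was lower at each higher globin step. The last step rests on 2 and 9 member UMIs in 7 and 21 cells. Its intervals, 35.9–1072 and 247–1027 CPM, include the level of the step below. The ratio was 0.722 (0.668–0.782), 0.829 (0.763–0.901) and 0.547 (0.492–0.608) in the first 3 steps and 1.92 (1.56–2.37) in the fourth. Spleen-Ctrl had 2301, 669, 416, 264 and 404 CPM, and Spleen-shPrmt9 2183, 1503, 891, 324 and 283 CPM. The last step held 34.6% and 46.6% of the erythroid-like cells of spleen and 1.10% and 1.83% of those of marrow. In Spleen-Ctrl the first pair of steps held only 13 and 5 cells.

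**Figure D5:**
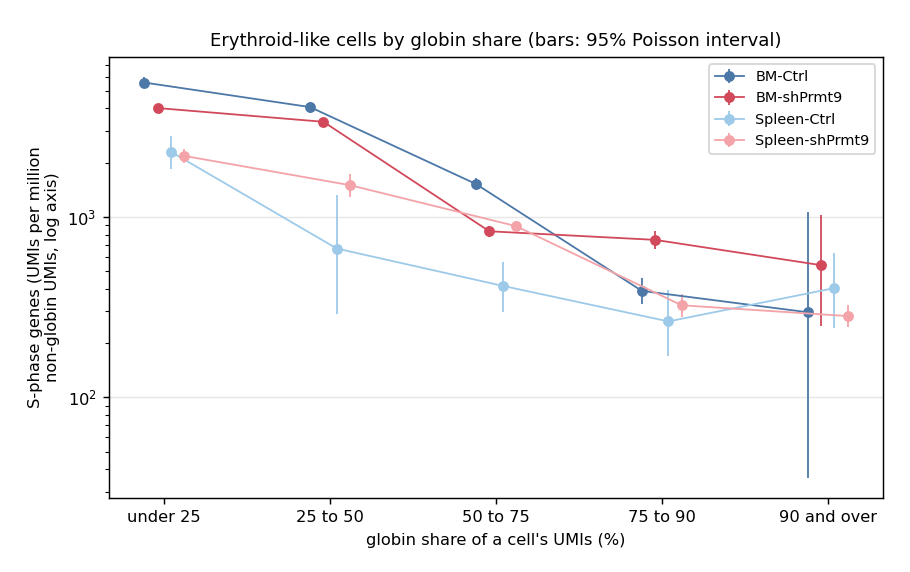
Level of the 49 genes in erythroid-like cells (y axis, CPM of non-globin UMIs, log scale) by the globin share of a cell's UMIs (x axis, percent) in each library (colour), with exact 95% Poisson intervals. In BM-Ctrl the level goes from 5568 CPM in cells with under 25% globin to 297 CPM in those with 90% or more, the latter from 2 UMIs in 7 cells.

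Ccne2 (chr4:11191351-11204779, plus strand, GRCm38) encodes cyclin E2 and was higher with shPrmt9 in erythroid-like cells. It went from 87 to 430 UMIs in marrow (23.6 to 64.9 CPM) and from 11 to 748 UMIs in spleen (6.49 to 40.9 CPM, a ratio of 6.30, 3.50–12.7). In Spleen-shPrmt9 it made up 40.5% of the class's member UMIs, and without it the summed ratio was 0.603. Its UMIs lay in 93 of 1566 cells, of which 12 with 20 or more UMIs held 386, and 1 cell had 57. Ccne1 went from 1.18 to 3.39 CPM, a ratio of 2.87 (0.762–24.2), and Pcna from 5.90 to 8.25 CPM, a ratio of 1.40 (0.739–2.97). Slbp went from 8.26 to 3.33 CPM, a ratio of 0.403 (0.223–0.781), while Mcm7 had 0.576 (0.348–1.01) and Rrm2 0.954 (0.498–2.05). The marrow levels of Ccne2 were not particular to erythroid-like cells. B precursor-like cells of marrow had 20.8 CPM with Ctrl and 61.1 CPM (39.2–91.0) with shPrmt9, the latter from 24 UMIs in 7 cells.

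The rarer progenitor classes of marrow are given with their cell numbers. B precursor-like cells (236 and 46 cells, added after the counts were seen) went from 2177 to 3232 CPM, a ratio of 1.48 (1.39–1.59), with 27 of 46 genes higher by 1.5-fold against 10.9% of all genes and 1 lower against 15.7%. The top 5% of cells held 47.9% and 27.7% of their member UMIs, and the top cell of BM-shPrmt9 held 14.4%. The thinned share with 3 or more members was 22.2% (17.0–28.1) and 30.4% (17.7–45.8), intervals that overlap. Their leading genes were Ccne2 at 2.94 (1.63–5.26), from 20.8 to 61.1 CPM, Mcm4 at 2.50 (1.47–4.22) and Tk1 at 2.46 (1.46–4.11), and the lowest were Gins4 at 0.756 (0.380–1.39), Pola2 at 0.968 (0.447–1.93) and Cdc45 at 0.9801 (0.470–1.90). Basophil/mast-like cells (83 and 86 cells) had a ratio of 1.30 (1.21–1.38), with 13 of 41 genes higher against 12.1% and 2 lower against 11.6%. Rfc4 went from 16.2 to 34.8 CPM, a ratio of 2.15 (1.10–4.51), with Hells at 2.03 (1.13–3.83) and Tyms at 1.87 (1.31–2.72), and the lowest of the genes with 50 or more UMIs were Rfc3 at 0.924 (0.515–1.68), Rpa2 at 0.972 (0.657–1.45) and Pola2 at 1.001 (0.573–1.78).

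Neutrophil progenitor-like cells (130 and 213 cells) were led by Prg2, Mpo and Prg3, and had median depths of 42434.5 and 1851 UMIs, so the libraries hold unlike cells here. Their sum went from 1598 to 2037 CPM, a ratio of 1.27 (1.23–1.32), with 11 of 48 genes higher against 16.1% and 0 lower against 15%. Tk1 went from 24.5 to 55.9 CPM, a ratio of 2.28 (1.79–2.91), with Pola2 at 2.16 (1.48–3.15) and Tyms at 1.83 (1.49–2.25), and the lowest were Pold3 at 0.828 (0.609–1.11), Ung at 0.897 (0.613–1.29) and Rpa3 at 0.903 (0.712–1.14). HSPC-like cells (47 and 83 cells, also added), gated by markers of blood stem and progenitor cells, had a lower sum. It went from 1277 to 948 CPM, a ratio of 0.742 (0.683–0.807), with 11 of 32 genes lower against 9.7% and 2 higher against 14.9%. Rrm1 went from 40.6 to 21.9 CPM, a ratio of 0.540 (0.321–0.915), with Mcm7 at 0.593 (0.386–0.917) and Mcm6 at 0.619 (0.459–0.840), and the highest were Gins4 at 1.603 (0.830–3.34), Pold3 at 1.37 (0.790–2.47) and Orc6 at 1.04 (0.555–2.06).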

How the data were processed

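Single-cell RNA-seq libraries of bone marrow and spleen from mice with MA9 cells were analysed, 1 library per group. The authors deposited UMI counts, not normalized, by gene and barcode, made with Cell Ranger on mm10 (6.0.2 in the file headers, 6.1.1 in the submitters' processing notes). Cells were left out below 200 genes or above 20% mitochondrial UMIs, and those with the highest Scrublet scores, 0.8% per 1000 cells, were left out as doublets, a rule set after Scrublet's own calls (128, 0, 1 and 190) were seen. A cell's class was the one with the highest mean of its marker levels, each scaled to the 100 best-scoring cells and capped at 1, given at least 2 markers and a score of 0.05, and cells with another class over 0.5 of the leading one were left out as mixed. A cell led by the neutrophil progenitor or granule-forming class was instead called Hoxa-gated if its Hoxa score was at least 0.12. Related classes such as these did not count towards mixed, so Hoxa-gated cells can carry many granule markers. The gate and its limits were set after the data were seen, as were the globin steps, the threshold of 20 member UMIs and the accounts of Ccne1 and Ccne2.

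Counts were summed per class and library with python 3.11.15, numpy 2.4.6, scipy 1.17.1 and scanpy 1.11.5 and divided by the class total. Classes with at least 50 cells in both libraries were compared (40 for those added later). A gene was tested against a fold of 1.5 where both libraries together held 20 UMIs. With 1 library a group no test was run. Poisson intervals of levels, conditional binomial intervals of ratios and Clopper-Pearson intervals of shares are exact, at 95%, and cover counting error only. Scaling factors of edgeR 4.0.16 (TMM) and DESeq2 1.42.0 in R 4.3.3 served as alternatives, beside those on markers, filters, folds, thinning and top cells. Ratios were also run on simulated counts, drawn for each gene with counting error alone. That check cannot address UMIs clustered in few cells or spread between libraries. Members and lists were chosen with earlier results of these data known. By rule, the genes named with values were the members with the most UMIs of each role, those past a fold of 2 in Hoxa-gated cells, the 3 highest and 3 lowest ratios with 50 or more UMIs in the other classes, and the 2 highest and 2 lowest of each pathway list, with other members added for their role.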

Additional observations from a re-analysis of the deposited data

Results flagged for a closer look

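Of 5 classes compared in both tissues, the summed level of the 49 genes lay on opposite sides in marrow and spleen, with intervals that leave out 1, in Hoxa-gated and T-like cells. In Hoxa-gated cells the ratio of shPrmt9 over Ctrl was 1.72 in marrow and 0.520 in spleen, the latter from 42 and 177 cells. In T-like cells it was 1.26 in marrow and 0.916 in spleen, but in spleen 1.10 with every cell weighted the same and 1.11 without the 5% of cells with the most member UMIs. Those alternatives keep Ccne1, and without Ccne1 the summed spleen ratio in T-like cells was further below 1. In marrow the top T-like cell of BM-shPrmt9 held 12.7% of that class's member UMIs. The other classes had 1.40 and 1.22 (mature B-like), 1.15 and 1.01 (mature granulocyte-like) and 1.34 and 0.950 (erythroid-like), where the last interval, 0.815–1.11, includes 1. With 1 library per group the difference between tissues was not tested, and the marrow and spleen libraries did not come from the same mouse.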

How the results depend on the processing

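No paired analysis was possible because each group held 1 library and the ratios come from no test. No library could be left out for the same reason. Of the summed ratios under each alternative, 85 stayed within the counting interval of the value reported, 58 moved further and 5 turned, which means that a value whose interval left out 1 went to the other side of 1, while 124 counts of members stayed within 1.5 times and 50 did not, and of the ratios of shares 74 stayed, 16 moved and 6 turned. Another 6 summed ratios and 18 ratios of shares went to the other side of 1 from values whose interval included 1, and those that moved are marked as crossed. Only values that moved or turned are given. The granule-score, globin, Ccne1, Ccne2 and top 5% alternatives were chosen after the data were seen. The cause of a change was not tested. The direction in Hoxa-gated cells of marrow held under every alternative for the summed ratio. Depth limits the spleen Hoxa-gated cells, with 3854 and 5831 member UMIs, and mature granulocyte-like cells of spleen, with 55 and 180. With TMM factors (edgeR), the summed ratio was 1.38 in mature B-like cells of spleen, 1.71 in Hoxa-gated cells of marrow, 0.520 in NK-like cells of spleen, 0.956 in T-like cells of spleen, 0.951 in erythroid-like cells of marrow (turned), 1.40 in erythroid-like cells of spleen (crossed), 0.773 in granule-forming granulocyte-like cells of marrow and 1.40 in mature granulocyte-like cells of marrow. With median-of-ratios size factors (DESeq2), the summed ratio was 1.39 in mature B-like cells of spleen, 1.71 in Hoxa-gated cells of marrow, 0.518 in NK-like cells of spleen, 0.961 in T-like cells of spleen, 0.926 in erythroid-like cells of marrow (turned), 1.40 in erythroid-like cells of spleen (crossed), 0.773 in granule-forming granulocyte-like cells of marrow and 1.40 in mature granulocyte-like cells of marrow. As a mean over cells, the summed ratio was 1.17 in mature B-like cells of marrow, 1.20 in mature B-like cells of spleen, 1.68 in Hoxa-gated cells of marrow, 0.741 in NK-like cells of spleen, 1.15 in T-like cells of marrow, 1.10 in T-like cells of spleen (turned), 1.20 in basophil/mast-like cells of marrow, 1.04 in erythroid-like cells of marrow, 0.844 in granule-forming granulocyte-like cells of marrow and 1.03 in monocyte/macrophage-like cells of marrow (turned). With at least 3 markers asked for, the summed ratio was 1.18 in mature B-like cells of spleen, 1.42 in erythroid-like cells of marrow and 1.22 in neutrophil progenitor-like cells of marrow. With mixed cells kept in their leading class, the summed ratio was 1.19 in mature B-like cells of spleen, 0.893 in T-like cells of spleen, 1.44 in erythroid-like cells of marrow and 1.15 in neutrophil progenitor-like cells of marrow. With doublets kept, the summed ratio was 0.620 in granule-forming granulocyte-like cells of marrow and 1.12 in neutrophil progenitor-like cells of marrow. Without Pcna, Slbp, Mcm6, Rrm2 and Rfc2, the summed ratio was 1.502 in mature B-like cells of marrow, 1.26 in mature B-like cells of spleen, 1.70 in Hoxa-gated cells of marrow, 0.505 in NK-like cells of spleen, 1.46 in erythroid-like cells of marrow, 0.561 in granule-forming granulocyte-like cells of marrow, 1.22 in mature granulocyte-like cells of marrow and 0.618 in monocyte/macrophage-like cells of marrow. Without the top cell of each library, the summed ratio was 1.13 in mature B-like cells of marrow and 1.17 in erythroid-like cells of spleen (crossed). In cells with a granule score under 0.1, the summed ratio was 1.83 in Hoxa-gated cells of marrow. Without Ccne1, the summed ratio was 0.757 in T-like cells of spleen. Without Ccne2, the summed ratio was 0.603 in erythroid-like cells of spleen. As CPM of non-globin UMIs, the summed ratio was 1.05 in erythroid-like cells of marrow and 1.16 in erythroid-like cells of spleen (crossed). Without the 5% of cells with the most member UMIs, the summed ratio was 1.19 in mature B-like cells of spleen, 1.86 in Hoxa-gated cells of marrow, 1.11 in T-like cells of spleen (turned), 0.884 in granule-forming granulocyte-like cells of marrow and 0.941 in monocyte/macrophage-like cells of marrow. With TMM factors (edgeR), the number of members past the fold was 20 (higher) in mature B-like cells of spleen, 0 (lower) in mature B-like cells of spleen, 11 (higher) in erythroid-like cells of marrow, 5 (lower) in erythroid-like cells of marrow, 6 (higher) in erythroid-like cells of spleen, 1 (higher) in granule-forming granulocyte-like cells of marrow and 2 (lower) in mature granulocyte-like cells of marrow. With median-of-ratios size factors (DESeq2), the number of members past the fold was 21 (higher) in mature B-like cells of spleen, 0 (lower) in mature B-like cells of spleen, 11 (higher) in erythroid-like cells of marrow, 5 (lower) in erythroid-like cells of marrow, 6 (higher) in erythroid-like cells of spleen, 1 (higher) in granule-forming granulocyte-like cells of marrow and 2 (lower) in mature granulocyte-like cells of marrow. With at least 50 UMIs asked for, the number of members past the fold was 11 (higher) in mature B-like cells of marrow, 1 (lower) in mature B-like cells of marrow, 14 (lower) in NK-like cells of spleen, 4 (higher) in T-like cells of marrow, 1 (lower) in T-like cells of marrow, 8 (higher) in basophil/mast-like cells of marrow, 0 (lower) in basophil/mast-like cells of marrow, 2 (lower) in erythroid-like cells of spleen, 10 (higher) in mature granulocyte-like cells of marrow and 0 (higher) in mature granulocyte-like cells of spleen. With 1 UMI in each library asked for, the number of members past the fold was 3 (higher) in NK-like cells of spleen, 19 (higher) in T-like cells of marrow, 27 (lower) in erythroid-like cells of spleen, 2 (higher) in mature granulocyte-like cells of spleen and 8 (lower) in mature granulocyte-like cells of spleen. With a fold of 2, the number of members past the fold was 12 (higher) in mature B-like cells of marrow, 1 (lower) in mature B-like cells of marrow, 2 (higher) in mature B-like cells of spleen, 0 (lower) in mature B-like cells of spleen, 14 (higher) in Hoxa-gated cells of marrow, 4 (higher) in T-like cells of marrow, 1 (lower) in T-like cells of marrow, 8 (lower) in T-like cells of spleen, 4 (higher) in basophil/mast-like cells of marrow, 13 (higher) in erythroid-like cells of marrow, 16 (lower) in granule-forming granulocyte-like cells of marrow, 9 (higher) in mature granulocyte-like cells of marrow, 2 (lower) in mature granulocyte-like cells of marrow and 2 (higher) in neutrophil progenitor-like cells of marrow. Without Ccne1, the ratio of shares was 0.879 in T-like cells of spleen (turned). For 2 or more members, the ratio of shares was 1.35 in Hoxa-gated cells of marrow, 1.79 in erythroid-like cells of spleen (crossed) and 0.816 in granule-forming granulocyte-like cells of marrow. For 5 or more members, the ratio of shares was 2.86 in mature B-like cells of marrow (crossed), 2.07 in mature B-like cells of spleen, 2.02 in Hoxa-gated cells of marrow, 0.324 in NK-like cells of spleen, 1.92 in T-like cells of marrow (crossed), 0.978 in T-like cells of spleen (turned), 0.247 in granule-forming granulocyte-like cells of marrow and 0.165 in monocyte/macrophage-like cells of marrow (crossed). Without thinning, the ratio of shares was 0.997 in Hoxa-gated cells of marrow (turned), 1.05 in Hoxa-gated cells of spleen (turned), 0.999 in T-like cells of spleen (turned), 1.5005 in granule-forming granulocyte-like cells of marrow (turned), 3.31 in mature granulocyte-like cells of marrow and 0.625 in neutrophil progenitor-like cells of marrow (crossed). Thinned to 1000 UMIs, the ratio of shares was 1.83 in mature B-like cells of marrow (crossed), 1.65 in mature B-like cells of spleen, 2.08 in Hoxa-gated cells of marrow and 0.182 in monocyte/macrophage-like cells of marrow (crossed).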

Other observations

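Classes with too few cells for a comparison are given as levels of the 49 genes. Megakaryocyte-like cells had the highest of any class, 2992 CPM (2819–3173) in 14 cells of BM-Ctrl and 4344 CPM (4193–4498) in 18 cells of BM-shPrmt9, a lineage known to copy its genome repeatedly without dividing. Plasma-like cells, named from markers of antibody-secreting cells, had 1037 CPM (1007–1068) in 149 cells of Spleen-shPrmt9, where the top 5% of cells held 37.1% of these UMIs. Dendritic (DC)-like cells of BM-Ctrl had 784 CPM (727–843) in 91 cells, monocyte/macrophage-like cells of Spleen-shPrmt9 770 CPM (709–835) in 78 cells, and granule-forming granulocyte-like cells of the same library 435 CPM (407–465) in 139 cells.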
